A study of Mus musculus with 1 sample.

Results

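The 10 genes described here handle fatty acids and stored fat in macrophages. They are the fatty acid binding protein genes Fabp1, Fabp4 and Fabp5, the lipid droplet coat gene Plin2, the lipase genes Lpl and Pnpla2, the triglyceride synthesis genes Dgat1 and Dgat2, the mitochondrial import gene Cpt1a and the desaturase gene Scd2. They were taken by name, with earlier results of these data known, and all 10 are among the 11918 genes listed for the library. Together they took 0.559% of all UMIs (unique molecular identifiers, each standing for 1 captured RNA molecule). The cells were alveolar macrophages (AMs), the resident macrophages of the airspaces, sorted by flow cytometry as CD45+, CD11c-high and Siglec-F-high cells from the lung of 1 adult mouse and profiled with the 10x Genomics 3′ assay. The sample is labelled wild-type, aged 8 to 12 weeks, on an FVB/NJ background crossed to C57BL/6 for 10 generations. The methods of the study describe it as an Hdac3 fl/fl animal, with floxed Hdac3 alleles and no Cre, and the Cre-positive library of the experiment was not analysed here. With 1 library from 1 mouse there is no replicate, so no difference was tested and every interval below covers counting error only.

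The library held 2055 cells with 1143 to 8603 UMIs each (median 3278). All 11 listed AM markers had a UMI in at least 10% of cells, among them Chil3 and Lyz2 in 100% of cells, Ear2 in 98.8% and Siglecf in 41.4%. No gene of the fibroblast, T or NK cell, eosinophil or hepatocyte lists was among the listed genes, and the adipocyte list was represented by 7 UMIs of Plin1. The largest foreign levels were 278 UMIs of the neutrophil gene S100a8, 172 UMIs of Sftpc from alveolar type 2 cells and 148 UMIs of Scgb1a1 from airway cells. There were 384 cells (18.7%) with over 5% of their UMIs on mitochondrial genes.

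AMs live in surfactant, a mixture of lipid and protein that they take up and break down, and the nuclear receptor PPAR-gamma, encoded by Pparg, drives much of their lipid gene programme. Fatty acids enter from lipoproteins cut by lipoprotein lipase (Lpl) or from ingested surfactant, and fatty acid binding proteins carry them through the cytoplasm. There they are joined to diacylglycerol by DGAT enzymes, stored in droplets coated by perilipin 2 (Plin2), released again by adipose triglyceride lipase (Pnpla2) and passed into mitochondria through CPT1A.

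By GENCODE M21 on GRCm38, Fabp5 lies on chromosome 3 at 10012548-10016607 on the forward strand and Fabp4 on the same chromosome at 10204088-10208576 on the reverse strand, 187 kb apart. Fabp1 lies on chromosome 6 at 71199827-71205023, the chromosome that also holds Pparg, and Plin2 on chromosome 4 at 86648386-86670060. Lpl lies on chromosome 8 at 68880491-68907448 and Cpt1a on chromosome 19 at 3322334-3385733. All 10 are annotated as protein-coding. No stretch of 98 bases within the final 300 bases of a coding transcript of these genes was found in a transcript of any other annotated gene, so for reads of the length sequenced here these ends are not shared between the members or with annotated pseudogenes.

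RefSeq start sites with upstream sequence were at hand for 4 members, and the 250 bases before the start are shown for Fabp1, the member with the highest count in any cell, and for Plin2, the most evenly distributed abundant member. Capitals in the Fabp1 sequence mark 2 matches.
Fabp1 (GRCm38.p6 chr6:71199629-71199878, forward strand): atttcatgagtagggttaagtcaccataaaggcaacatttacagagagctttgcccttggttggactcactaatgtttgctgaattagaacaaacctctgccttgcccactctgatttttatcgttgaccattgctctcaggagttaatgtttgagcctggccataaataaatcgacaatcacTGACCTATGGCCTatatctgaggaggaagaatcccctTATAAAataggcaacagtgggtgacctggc
Plin2 (GRCm38.p6 chr4:86670060-86670309, reverse strand): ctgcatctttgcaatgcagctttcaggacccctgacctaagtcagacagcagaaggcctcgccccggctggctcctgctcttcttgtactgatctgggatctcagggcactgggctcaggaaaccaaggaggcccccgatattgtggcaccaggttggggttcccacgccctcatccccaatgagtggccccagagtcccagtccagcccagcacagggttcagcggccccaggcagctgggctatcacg
The first capitals are 2 copies of AGGNCA in the same direction with 1 base between them, read on the opposite strand, 67 to 55 bases before the start. This spacing is known as DR1, the arrangement that heterodimers of PPAR and RXR bind. The second capitals are the TATA box letters TATAAA, 30 to 25 bases before the start. Searched on both strands, the DR1 letters occurred in 0.338% of the 32851 windows of all genes and TATAAA in 12.4%, and the matches do not overlap each other. Neither was found in the windows of Plin2, Pnpla2 or Cpt1a. The Fabp1 window had a GC content of 42.8% and 2 CpG dinucleotides against 61.6% and 6 for Plin2. The GENCODE start of Fabp1 lies 52 bases upstream of the RefSeq start used here. A match describes letters and not a bound site.

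Levels are given as UMIs per 10000 UMIs over all cells. Because a molecule is counted once at its 3′ end whatever its length, genes can be set side by side on this scale. Lpl, the lipase that frees fatty acids from lipoprotein triglyceride, was the highest member at 18.3 per 10000 (95% exact Poisson interval 18.0 to 18.6) and ranked 70 of all listed genes. A cell held a median of 5 Lpl UMIs, 15 at the 95th percentile and at most 29. Lpl had a UMI in 97.6% of cells, near the 98.8% that would be seen if every cell gave Lpl the same share of its UMIs. The lipase was thus detected in nearly every AM.

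Of the fatty acid binding proteins, Fabp1, best known as the liver form, was the most abundant. Its level was 14.9 per 10000 (14.6 to 15.2), rank 90 among all genes. A cell held a median of 3 Fabp1 UMIs, 16.3 at the 95th percentile and 67 at most. It was detected in 86.9% of cells (95% exact binomial interval 85.4% to 88.3%), below the 97.7% of an equal share. Fabp1 was thus both among the leading genes and missing from 269 cells, more than depth alone would leave without a UMI.

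Fabp5, the epidermal form that is common in macrophages, stood at 5.67 per 10000 (5.49 to 5.84). Its median was 1 UMI per cell, its 95th percentile 7 and its highest value 31, and it was detected in 70.2% of cells against 81.8% for an equal share. Fabp4, the adipocyte and macrophage form, stood at 3.86 per 10000 (3.72 to 4.00) with a median of 0, a 95th percentile of 6 and a highest value of 28. It was detected in 49.1% of cells (47.0% to 51.3%) against 70.3% for an equal share. The gap between detection and an equal share was wider for Fabp4 than for any other member. Fabp7, another form, had 3 UMIs in the whole library, and Fabp2, Fabp3 and Fabp6 were not among the listed genes.

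Plin2, which coats lipid droplets, stood at 9.83 per 10000 (9.60 to 10.1). A cell held a median of 3 Plin2 UMIs, 9 at the 95th percentile and at most 17. It was detected in 91.0% of cells against 93.3% for an equal share. Like Lpl, the droplet coat gene was spread over nearly all cells.

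The enzyme genes among the members other than Lpl were far lower. Cpt1a, which loads fatty acids for entry into mitochondria, stood at 1.49 per 10000 (1.41 to 1.59) and was detected in 39.6% of cells. Pnpla2, the lipase that begins triglyceride breakdown, stood at 0.651 (0.593 to 0.712) and was detected in 19.9%. Dgat1 and Dgat2, which complete triglyceride synthesis, stood at 0.563 (0.510 to 0.621) and 0.447 (0.400 to 0.499), with a UMI in 17.2% and 14.1% of cells. For these 4 genes the detection was within 0.463 percentage points of that for an equal share, so at this depth no excess of empty cells was seen. Scd2, a stearoyl-CoA desaturase, was the lowest at 0.273 (0.236 to 0.314), with 197 UMIs in 175 cells (8.52%). Sftpc and Scgb1a1, which AMs are not known to make, had a UMI in 6.86% and 5.50% of cells. The interval of Scd2 (7.34% to 9.81%) overlaps that of Sftpc (5.81% to 8.04%), the higher of the epithelial RNAs named. By detection alone Scd2 was thus not set apart from Sftpc, though an overlap is no test of equality. The neutrophil gene S100a8, at 0.385 per 10000 with a UMI in at least 10% of cells, lay above Scd2 and below Dgat2 in level. The part of free RNA in the Scd2 and Dgat2 counts was not tested.

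In the order of levels Lpl, Fabp1, Plin2, Fabp5, Fabp4, Cpt1a, Pnpla2, Dgat1, Dgat2 and Scd2, the intervals of neighbours overlapped only for Pnpla2 and Dgat1. The members spanned a wide range, since Lpl and Scd2 lie at its ends and the step from Fabp4 to Cpt1a alone was 2.58-fold. No cell type in this library is known to lack these genes, so a background share from free RNA could not be read from another cell type. In the 282 cells with a UMI of an epithelial gene, whose median depth was 3934 UMIs against 3172, Fabp1 stood at 16.1 per 10000 against 14.6 in the other cells (ratio 1.10, 1.04 to 1.15), and the intervals of the ratio included 1 for the 9 other members.

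**Figure D1:**
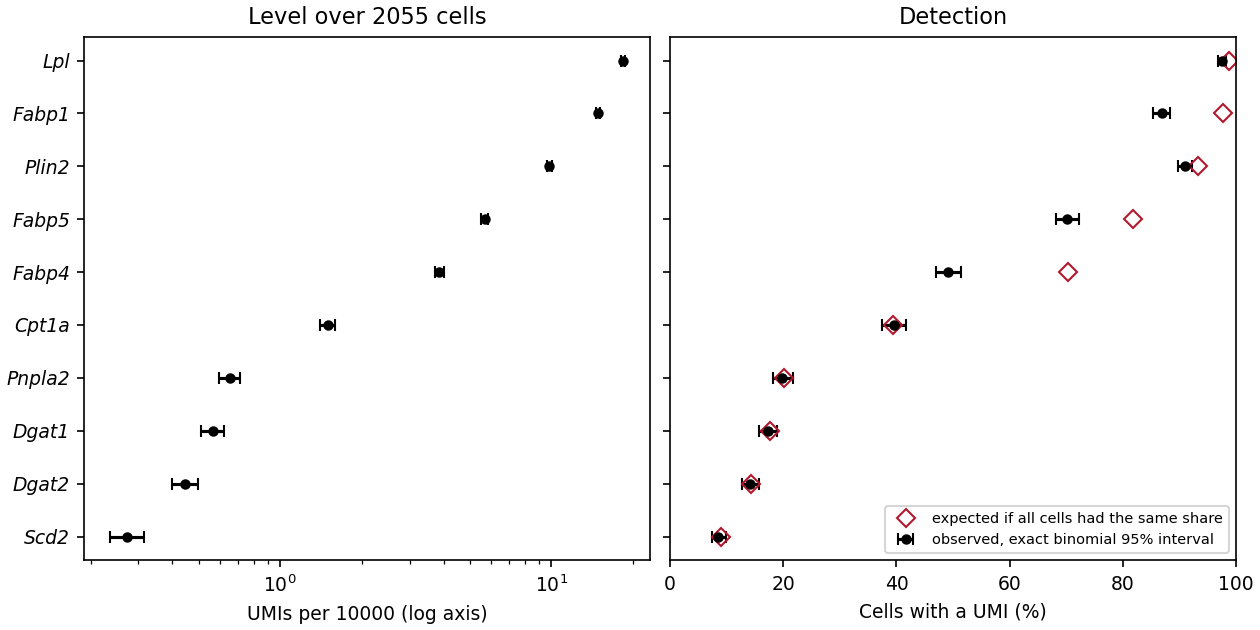
Level of each member over the 2055 cells in UMIs per 10000 on a log axis with exact Poisson 95% intervals (left), and percent of cells with a UMI with exact binomial 95% intervals beside the percent expected if every cell gave the gene the same share (right, open diamonds). Fabp4 was detected in 49.1% of cells against an expected 70.3%, while Cpt1a, Pnpla2, Dgat1, Dgat2 and Scd2 lay on their expected values.

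Depth shapes detection, so cells were also thinned to 2000 UMIs each, which left 1756 cells and set aside 299 shallower ones. At that depth Lpl was detected in 95.3% of cells, Plin2 in 83.0%, Fabp1 in 81.0%, Fabp5 in 58.7% and Fabp4 in 38.2%. The order of detection was the same as without thinning, with Plin2 ahead of Fabp1 although Fabp1 had the higher level. The remaining members were detected in 27.1% (Cpt1a) down to 5.41% (Scd2) of the thinned cells.

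The members also differed in how level followed depth. In the shallowest 685 cells (median 2092 UMIs), the middle 686 (median 3279) and the deepest 684 (median 5039), Fabp5 stood at 4.40, 5.40 and 6.33 per 10000. Cpt1a went the other way, at 1.70, 1.54 and 1.39. Fabp1 stood at 14.0, 15.1 and 15.1, and Lpl at 18.8, 18.1 and 18.2. No counting intervals were taken for these depth groups. Fabp4 stood at 3.57, 3.18 and 4.40. Cells with over 5% mitochondrial UMIs had 20.9 Lpl UMIs per 10000 against 17.8 in the others, 12.9 of Fabp1 against 15.3 and 4.70 of Fabp5 against 5.85.

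The spread between cells was then measured as the squared coefficient of variation (CV) of the share of UMIs a gene took in each cell, with the variance due to counting removed. A value of 0 means that cells differ no more than counting gives. Over the 4023 genes with a UMI in at least 10% of cells the median was 0.116 and the 95th percentile 0.677. All 3 fatty acid binding protein genes lay above that percentile, with 1.71 for Fabp4, 0.783 for Fabp5 and 0.762 for Fabp1. Lpl at 0.146 and Plin2 at 0.102 lay at percentiles 57.4 and 46.1. So the carriers of fatty acids varied between AMs more than most genes, while the lipase and the droplet coat lay near the middle of all genes.

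Because the squared CV of low genes is noisy, the abundant members were also ranked among the 426 genes with at least as many UMIs as Fabp4. Fabp4 ranked 9, Fabp5 13 and Fabp1 15, while Lpl ranked 107 and Plin2 160, where the median was 0.0770. The low members had values of 0.141 (Cpt1a), 0.199 (Pnpla2), 0.241 (Dgat2) and 0.301 (Dgat1). Counting error, as the standard deviation expected for a gene with equal shares, was 0.0548, 0.126, 0.183 and 0.145 for these 4. In cells with at most 5% mitochondrial UMIs the values were 0.0898 (Cpt1a), 0.0896 (Pnpla2), 0.327 (Dgat2) and 0.413 (Dgat1). Without the 5% deepest cells they were 0.123, 0.216, 0.205 and 0.196 in the same order. None of these changes passed 2 times the counting error. Scd2 had 1.19 with a counting error of 0.300 but did not reach the detection minimum.

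**Figure D2:**
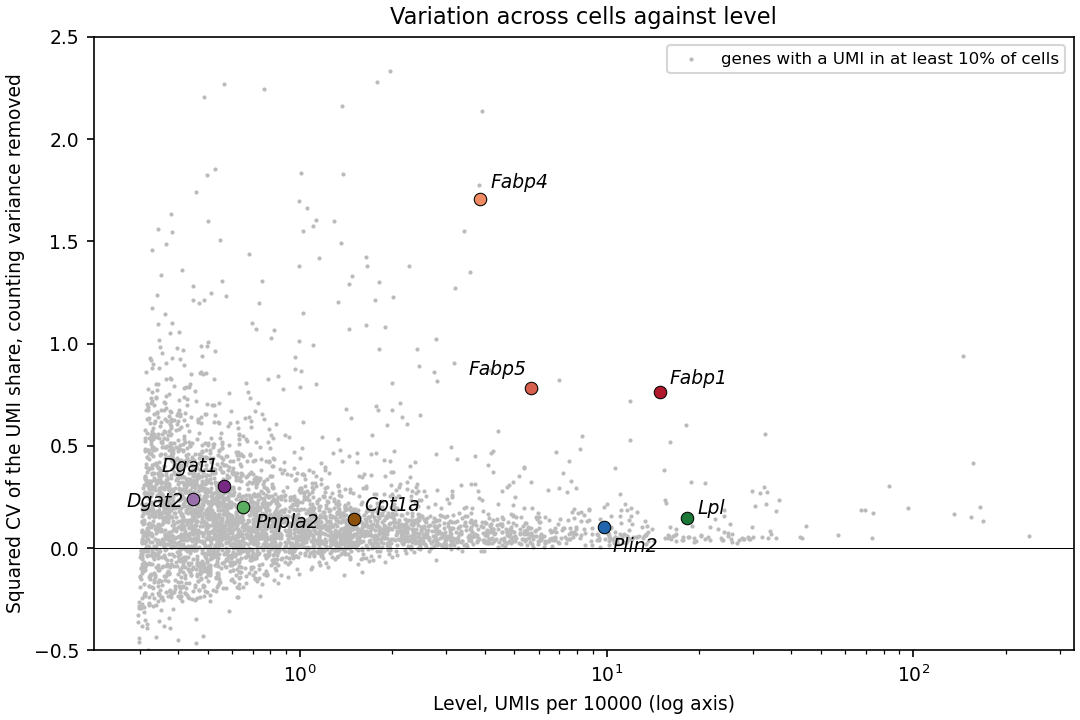
Squared CV of the share of UMIs across cells after removal of counting variance (vertical axis, no unit) against level in UMIs per 10000 (log axis), for genes with a UMI in at least 10% of the 2055 cells (grey) and the 9 members among them (coloured). Fabp4 at 1.71, Fabp5 at 0.783 and Fabp1 at 0.762 lie above most genes of like level, and 38 genes fall outside the plotted range of -0.5 to 2.5.

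The distributions of UMIs per cell show the same contrast. For Fabp1, 123 cells (5.99%) held 16 or more UMIs where an equal share gives 0.530%, and 13.1% held none where an equal share gives 2.35%. For Fabp4, 50.9% of cells held none against 29.7%, yet 9 cells held 16 or more. The 206 cells with the highest share of a gene (10% of all cells) held 46.1% of all Fabp4 UMIs, 34.6% of those of Fabp5 and 31.3% of those of Fabp1. They held 21.2% for Plin2 and 19.8% for Lpl. The distributions were broad with a long upper end and showed no gap between cells with and without a gene.

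**Figure D3:**
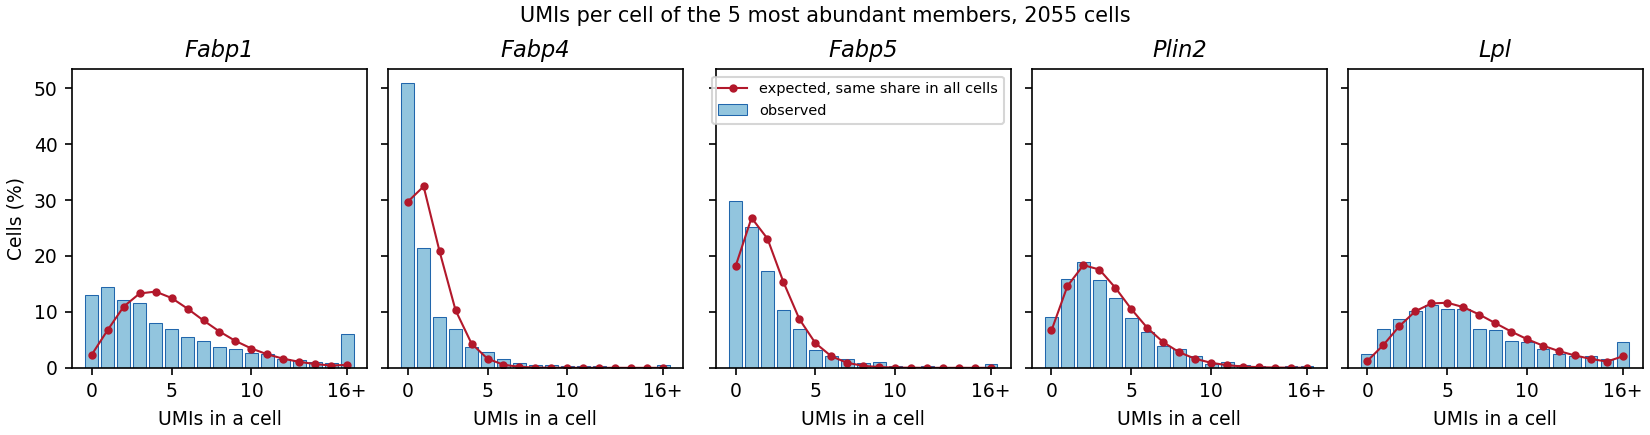
Percent of the 2055 cells (vertical axis) with each number of UMIs of the 5 most abundant members (bars, with 16 or more pooled), beside the percent expected if every cell gave the gene the same share (points and line). Fabp1 and Fabp4 have more cells at 0 and at the upper end than expected, while Plin2 follows the expected line closely.

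Most AMs held RNA of more than 1 fatty acid binding protein. Of the 2055 cells, 711 (34.6%) had a UMI of all 3 genes, 837 (40.7%) of 2, 432 (21.0%) of 1 and 75 (3.65%) of none. At 2000 UMIs per cell the counts were 341, 773, 554 and 88 of 1756 cells. The 206 cells highest for Fabp4 and the 206 highest for Fabp5 shared 38 cells, 18.4% of each. Those highest for Fabp1 shared 20 with Fabp4 (9.71%) and 19 with Fabp5 (9.22%), about the 10% that every group takes of all cells. For Plin2 and Lpl the shared cells were 36 (17.5%), a share that was 10.8% after thinning, while that of Fabp4 and Fabp5 was then 15.9%. The thinned share of the remaining pairs of the 5 abundant members ran from 8.52% (Fabp5 and Lpl) to 15.3% (Fabp1 and Plin2). It was 11.4% for Fabp1 and Fabp4 and 12.5% for Fabp1 and Fabp5, so Fabp4 and Fabp5 did not stand clear of the other pairs.

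Cells highest for a member also differed in level for others. In the cells highest for Fabp4, Fabp5 stood at 7.89 per 10000 against 5.42 in the other 1849 cells (ratio 1.46, 1.33 to 1.59), while Fabp1 stood at 14.9 in both. In the cells highest for Fabp5, Fabp4 stood at 5.50 against 3.67 (1.5, 1.34 to 1.67) and Fabp1 at 13.0 against 15.1 (0.861, 0.804 to 0.920). Fabp4 and Fabp5 were thus each higher in the cells highest for the other, and Fabp1 was not higher in either group. In the cells highest for Plin2, Lpl stood at 20.8 against 18.0 (1.16, 1.09 to 1.22) and Hilpda, whose product sits on droplets and blocks Pnpla2 protein, at 8.38 against 7.09 (1.18, 1.08 to 1.29). In the cells highest for Lpl, the droplet growth gene Cidec stood at 1.88 against 1.42 (1.32, 1.09 to 1.60). These groups of cells and their partner genes were chosen after values were seen.

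Correlations across the 2055 cells were weak, and with sparse counts values of this size are no evidence of shared or of separate regulation. The cells share 1 library and 1 mouse, and differ in depth. Over the 36 pairs of the 9 members detected in at least 10% of cells, Pearson's r of the log values had a median of 0.0179 and ran from -0.0549 (Fabp1 with Dgat2) to 0.111 (Fabp4 with Fabp5). Over all 8090253 pairs of genes with this detection the median was 0.00804 and the central 95% ran from -0.0387 to 0.0619. The 6 pairs above that range were Fabp4 with Fabp5, Fabp4 with Lpl (0.10), Plin2 with Lpl (0.0878), Fabp1 with Plin2 (0.0757), Lpl with Dgat1 (0.0644) and Fabp5 with Lpl (0.0640). The 3 pairs below it were Fabp1 with Dgat2, Fabp4 with Dgat2 (-0.0416) and Fabp1 with Cpt1a (-0.0400). The range comes from pairs not matched for level, and each of these pairs holds an abundant member. The highest r with any gene was 0.112 (Fabp4) to 0.195 (Fabp5) for the abundant members. For the lower members it was 0.0818 (Dgat1) to 0.0955 (Cpt1a). Thinned to 2000 UMIs, r was 0.0804 for Fabp4 with Fabp5, 0.0762 for Fabp1 with Plin2, 0.0696 for Fabp4 with Lpl, 0.0581 for Lpl with Dgat1, 0.0454 for Plin2 with Lpl and 0.000295 for Fabp5 with Lpl.

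Counting noise lowers r, so for the 5 abundant members the correlation of the underlying shares was estimated with counting variance removed. It was highest for Plin2 with Lpl at 0.314, followed by Fabp4 with Lpl at 0.186 and Fabp4 with Fabp5 at 0.173. It was -0.0405 for Fabp1 with Fabp5 and -0.00152 for Fabp1 with Lpl. For the members with fewer UMIs this estimate was unstable and is not given.

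Pparg itself stood at 1.17 per 10000 (1.09 to 1.25) and was detected in 31.7% of cells. Its r with the 9 members had a median of 0.0217, against 0.0143 with all 4022 other genes, and the highest r of any gene with Pparg was 0.109. The highest among members was 0.0518 for Fabp1, at percentile 92.7 of all genes, followed by Plin2 at 0.0457, Fabp4 at 0.0392 and Fabp5 at 0.0273. Lpl had 0.00333 and Dgat1 -0.0294, at percentile 3.28. This order did not hold at 2000 UMIs per cell, where r was 0.00954 for Fabp1, 0.0104 for Plin2 and 0.00426 for Fabp4 and highest for Dgat2 at 0.0217. With counting variance removed, r was 0.0871 for Fabp1, 0.0597 for Plin2, -0.0927 for Lpl, -0.102 for Fabp4 and -0.198 for Fabp5. Pparg has a lower level than Cpt1a, so this estimate is unstable here and its signs cannot be read. For Acsl1 with Pparg it passed 1 (1.56). At 2000 UMIs per cell, the 346 cells with a Pparg UMI had 15.7 Fabp1 UMIs per 10000 against 14.7 in the 1410 without (ratio 1.07, 0.998 to 1.14). For Lpl the values were 17.3 and 18.7 (0.925, 0.868 to 0.985), and the intervals of the other members included 1. No member followed the Pparg RNA of the same cell closely at this depth.

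**Figure D4:**
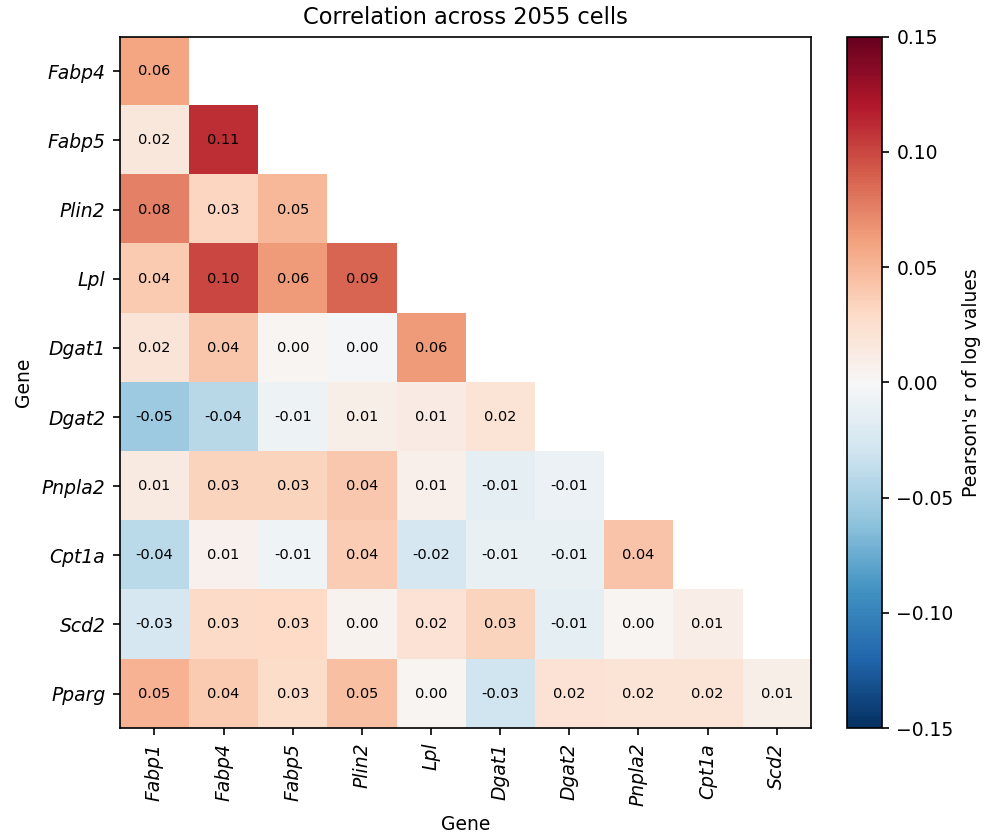
Pearson's r of the log values across 2055 cells for each pair of the 10 members and Pparg (colour and number, no unit). The highest value is 0.11 for Fabp4 with Fabp5, and the row of Pparg runs from -0.03 to 0.05.

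For each member the 3 other genes with the highest r were noted. For Fabp1 these were Ear1 (0.177) and Ear2 (0.170), ribonucleases typical of AMs, and Ltc4s (0.161), the leukotriene C4 synthase. For Fabp5 they were Cstb (0.195), an inhibitor of lysosomal proteases, the ferritin gene Fth1 (0.175) and the lysozyme gene Lyz2 (0.166). For Fabp4 they were Cd48 (0.112), Txn1 (0.106) and Cd63 (0.105). The 3 fatty acid binding protein genes had no gene in common in these lists, but lists this short say little about shared neighbours. The level ratio of Ear1 was 1.31 in the cells highest for Fabp4, 1.22 for Fabp1 and 0.983 for Fabp5. That of Cstb was 1.25 in the cells highest for Fabp4, 1.02 for Fabp1 and 1.45 for Fabp5.

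For Plin2 they included Gpx1 (0.142) and Hilpda (0.134), and for Lpl they were Cd44 (0.156), the cholesterol exporter Abca1 (0.136) and the haem oxygenase gene Hmox1 (0.130). For Dgat1 they were Mgea5, Sec31a and Brd2, for Dgat2 Sh3tc1, Psmc4 and Mbnl2, for Pnpla2 Xbp1, Tmbim4 and Srpr, and for Cpt1a Zfp36l2, Hvcn1 and Atp6v0d2, with r between 0.0769 and 0.0955. Of these 27 genes, 21 stayed among the closest 3 with the scaled scores, but only 6 at 2000 UMIs per cell. Among those 6 were Ear1 and Ear2 for Fabp1, Fth1 for Fabp5, Hilpda for Plin2 and Cd44 for Lpl.

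The members were also followed across 5 cell states, each given by the share of a cell's UMIs on a gene list, comparing the 206 highest cells with the other 1849. A gene was counted as different where the levels were at least 1.5-fold apart and their Poisson intervals did not overlap, among genes with at least 500 UMIs. This minimum kept Fabp1, Fabp4, Fabp5, Plin2, Lpl and Cpt1a. In cells high for chemokine genes and Tnf (led by Cxcl2 and Ccl3), 1 of these 6 members was counted, against 3.08% of 2081 genes. It was Fabp4, at 5.61 per 10000 against 3.64 (ratio 1.54, 1.39 to 1.71). Fabp4 lost this call with the highest 20% of cells (1.20), and reached 1.90 with the highest 5% and 1.76 at 2000 UMIs per cell. In the same cells Fabp5 stood at 5.61 against 5.67 and Lpl at 15.8 against 18.6 (0.849, 0.800 to 0.901). Dgat1, below the minimum, stood at 0.331 against 0.592 (0.559, 0.360 to 0.832).

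In cells high for immediate-early genes (led by Fos and Dusp1), which dissociation of tissue is known to induce, none of the 6 members was counted, against 3.03% of 2078 genes. Fabp4 again had the highest ratio of the 6, with 5.03 against 3.74 (1.35, 1.20 to 1.51), and the ratio was 1.16 in cells with at most 5% mitochondrial UMIs and 1.63 with the highest 5% of cells. The chemokine share was also higher in these cells, at a median of 0.213% of UMIs against 0.0830%, so the 2 states are not separate. Lungs were digested before sorting, and the part of digestion in the Fabp4 difference was not tested.

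In cells high for sterol synthesis genes (led by Insig1 and Hmgcs1), none of the 6 members was counted, against 1.87% of 2083 genes. Fabp5 stood at 7.34 per 10000 against 5.50 (1.33, 1.21 to 1.47), and at a ratio of 1.53 with the highest 5% of cells. Scd2, whose gene responds to the same SREBP factors as sterol genes, stood at 0.624 against 0.238 (2.63, 1.81 to 3.73). It lies below the UMI minimum and was therefore not counted, and its ratio was 1.93 at 2000 UMIs per cell. Cpt1a stood at 1.22 against 1.52 (0.800, 0.629 to 1.01).

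In cells high for cell cycle genes (led by Cks2 and Pcna), none of the 6 was counted, against 5.23% of 2083 genes. Plin2 stood at 8.13 per 10000 against 10.0 (0.809, 0.746 to 0.876) and Lpl at 15.9 against 18.6 (0.857, 0.809 to 0.907), while Fabp1 stood at 14.8 against 14.9. With the highest 5% of cells the ratios were 0.682 for Fabp1, 0.725 for Fabp4, for which the direction turned from 1.03, 0.751 for Fabp5, 0.768 for Plin2 and 0.789 for Lpl. In cells high for MHC class II genes (led by Cd74 and H2-DMa), none was counted, against 0.961% of 2082 genes, and the ratios of the 6 lay between 0.875 (Fabp4) and 1.13 (Fabp5).

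**Figure D5:**
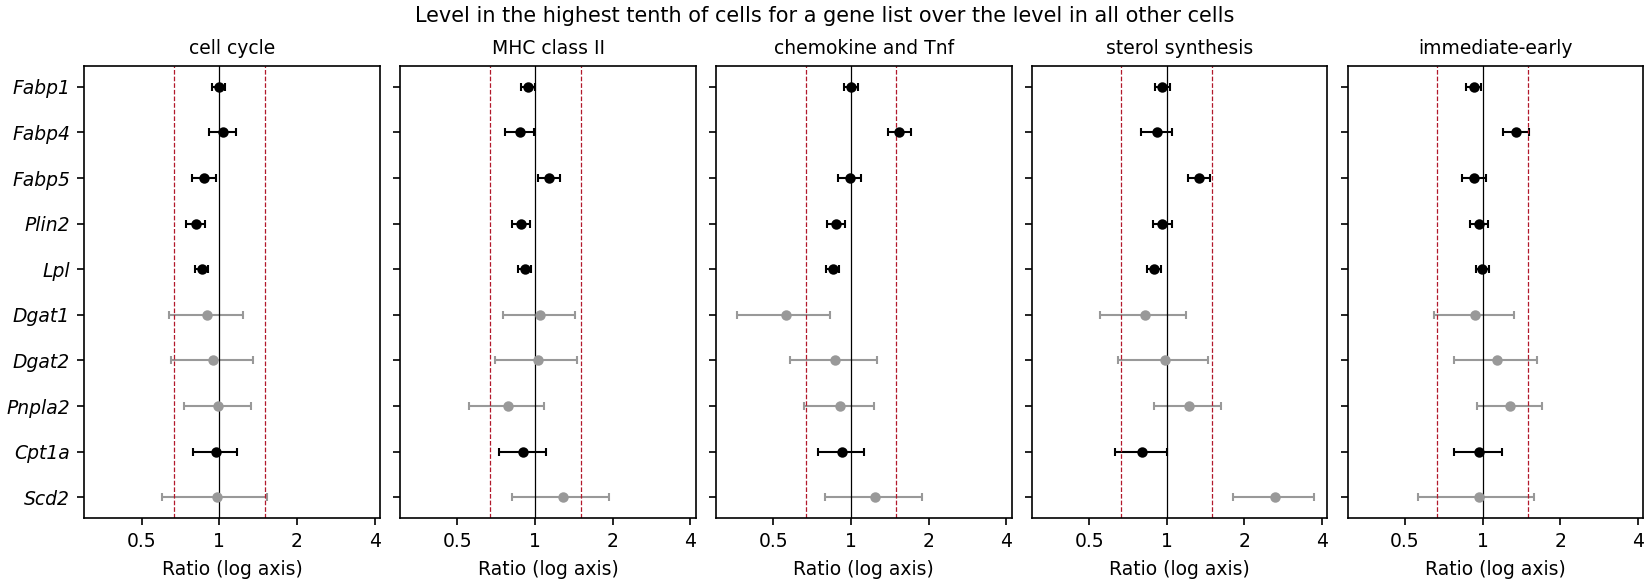
Ratio of each member's level in the 206 cells highest for a gene list to its level in the other 1849 cells (log axis) with exact 95% intervals from counting, for 5 lists. Black points are the 6 members with at least 500 UMIs, grey points the other 4, and dashed lines mark 1.5-fold either way. Fabp4 passes the upper line in the chemokine panel and Scd2 in the sterol panel, and Dgat1 passes the lower line in the chemokine panel.

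The members sit in a wider lipid programme, described by 93 other genes of which 71 were listed. A UMI in at least 10% of cells was found for 35 of them. The most abundant was Dbi, the acyl-CoA binding protein gene, at 9.99 per 10000 in 88.1% of cells, close to Plin2. Hilpda followed at 7.21 in 78.3% of cells, the phosphatidate phosphatase gene Lpin1 at 4.43 in 71.2% and the fatty acid uptake gene Cd36 at 4.27 in 66.1%. Etfb, which passes electrons from fatty acid oxidation, stood at 3.64 and the lysosomal lipase gene Lipa at 2.44. The other coat gene Plin3 stood at 0.681, far below Plin2, and Plin4 and Plin5 were not listed.

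Of the oxidation list 12 of 19 genes were detected in at least 10% of cells, with Etfa at 1.74 and Hadhb at 1.33 next to Cpt1a at 1.49. Cpt1b and Cpt1c, the other forms of Cpt1a, were not listed. Of the synthesis and desaturation list 4 of 12 passed, with Acly at 1.26, Elovl5 at 1.10 and Elovl1 at 0.534, while Scd1 had 62 UMIs against 197 of Scd2. The member Fabp4 is among the genes that the study names as PPAR-gamma targets. Of the other genes so named, Mgst3 stood at 2.77, Cidec at 1.46, Acsl1 at 0.356 and Nr1h3 at 0.270.

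The spread of these genes was like that of all genes, with a median squared CV of 0.0952 over the 35. Cd36 at 0.474 lay at percentile 90.1. Of all 35 the highest r with Fabp1 was 0.128 for Etfb, with Fabp4 0.105 and with Fabp5 0.123 for Dbi, with Plin2 0.134 for Hilpda and with Lpl 0.111 for Cd36. The r of Cd36 with Fabp1 was 0.00173.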

How the data were processed

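The authors mapped reads to mm10 with Cell Ranger and counted UMIs. Values deposited by the authors are on a natural log scale: in Seurat, the UMIs were scaled to 10000 in each cell, 1 was added and the log taken. A scaled score deposited by the authors adjusts these values for depth and mitochondrial share and standardises each gene. The methods describe filters on mitochondrial share and ribosomal genes, but 384 cells over 5% and 104 ribosomal protein genes are in the values, and all cells and genes were kept. With 1 library no samples were compared. mm10 is GRCm38. Reads were not realigned and no doublet caller was run. Levels, the squared CV and correlations were repeated without the 5% deepest cells.

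Whole UMIs were recovered from the steps between log values (100% of 3052476 values within 0.01 of a whole number). Depth was 1143 to 8603 UMIs per cell, and 3 UMIs in all cells are 0.00415 per 10000. Levels are summed UMIs with exact Poisson intervals, and shares of cells have exact binomial (Clopper-Pearson) intervals, both at 95%. Ratios have exact conditional binomial intervals. The squared CV and the corrected correlation subtract the Poisson variance given each cell's total, and both were tested on simulated data with the totals of the real cells. State groups were the 10% of cells with the highest share of UMIs on a list. The genes named are the 10 members, Pparg, the 3 genes closest to each member, the 3 highest genes of each lipid list, the PPAR-gamma targets named by the study, the leading genes of the state lists and markers. Some genes that fall under this rule are not reported here. Names outside this rule (Plin4, Plin5, Cpt1b, Cpt1c, Scd1, Fabp2, Fabp3, Fabp6) were chosen after values were seen. The members and lists were chosen with earlier results of these data known. Alternatives were the depth, the cells kept, the detection minimum, the log constant, rank correlation, the scaled scores and the cell thresholds. Those that combine removal of counting variance with a cell filter were added after seeing the data. Positions are from GENCODE M21 and upstream sequences from RefSeq (GRCm38.p6). Python 3.11.15, numpy 2.4.6, scipy 1.17.1 and pandas 2.3.3 were used.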

Additional observations from a re-analysis of the deposited data

How the results depend on the processing

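Of 308 repeats of a value under an alternative, 59 moved past the bound set for them. The bound was the counting interval for levels, shares and ratios, 2 times the counting error for the squared CV, 1.5 times for the number of closest genes kept, and a fixed tolerance of 0.05 for a median r, which is wider than the reported medians. The median r among members stayed between 0.00663 (scaled scores) and 0.0421 (counting variance removed, cells with at most 5% mitochondrial UMIs) under the 13 alternatives run. With counting variance removed, single values for low members and for Pparg are unstable. In those cells r of Pnpla2 with Cpt1a passed 1 (1.08). The median r of members with Pparg was 0.00771 to 0.0404 under 12 of 13 alternatives, and -0.130 with counting variance removed and the 5% deepest cells left out, an alternative added after seeing the data, and the cause was not tested. Detection of every member was lower at 2000 UMIs per cell or with at least 2 UMIs required, since both ask for more molecules. The level ratios of Fabp4 in chemokine-high cells ran from 1.20 to 1.90, and those of Scd2 in sterol-high cells from 1.81 to 3.76. Fabp4 had a squared CV of 1.77 with cells of at most 5% mitochondrial UMIs and 1.80 without the 5% deepest cells. No paired analysis was possible because there is 1 library. Differences between mice, between the lungs of 1 mouse and between library preparations were not measured. At this depth a low member such as Dgat2 gives no UMI in most cells, so its variation between cells was not detectable above counting error.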
